A study of Homo sapiens with 6 samples.

Results

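Ceruloplasmin and the genes that move iron into, within and out of the cell were examined by RNA sequencing in A2780 cells with and without knockdown of USP39. The set was a list of 10 genes given by symbol, namely CP, TF, TFRC, FTH1, FTL, SLC40A1, SLC11A2, HEPH, IREB2 and ACO1. The transcript table held 13 rows for 9 of the 10, among 21368 transcript rows for 16571 gene symbols. The rows of a gene were summed in each library. HEPH had no row and was not analysed here. The list was put together with the difference between the groups already known, above all that of CP, so the members' differences are described with an error and carry no p-value.

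A2780 is an established human ovarian cancer cell line that the labels class as serous. Cells were transduced by lentivirus either with the pGIPZ vector carrying a control sequence (pGIPZ-NC) or with a short hairpin RNA against USP39 (shUSP39), a splicing factor, and each group had 3 libraries of total RNA. Both groups therefore carried an integrated vector, neither was untransduced, and both were the same line. The study describes 2 hairpins against USP39, and which of them was used in these libraries was not stated. The level of USP39 itself was not analysed here. The study calls the samples of a group biologically independent, and whether they were separate transductions is not stated, so the errors below measure the spread between these libraries.

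Iron circulates bound to transferrin, enters cells through the transferrin receptor, is stored inside the ferritin shell and leaves through ferroportin. Ceruloplasmin, a copper-carrying ferroxidase made mainly by the liver for the plasma and also anchored to the surface of some other cells, oxidizes the exported iron so that transferrin can take it up. Inside the cell the iron regulatory proteins bind short hairpins, the iron-responsive elements, in the untranslated regions (UTRs) of several of these mRNAs. A hairpin in the 5′ UTR lets them block translation, and hairpins in the 3′ UTR of the transferrin receptor let them protect the mRNA from decay, so that much of this regulation does not show in the amount of mRNA.

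The hairpins are shown because their place, in the 5′ or the 3′ UTR, goes with the kind of control described above. The motif searched was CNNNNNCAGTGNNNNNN on the sense strand of coding transcripts, with the 5 letters before the 6-letter loop CAGTGN able to pair with the 5 letters after it, G opposite T allowed. It overlaps no other motif searched. Of the 10 members, 5 held a match in a UTR. Among the 19807 coding genes searched, 0.192% held a match in a 5′ UTR and 0.717% in a 3′ UTR. Capitals mark the loop, and each 30-base stretch is written 5′ to 3′ along the mRNA, from GRCh37 with the GENCODE annotation.
FTH1, 5′ UTR, exon 1 of 4, chr11:61735045-61735074, minus strand: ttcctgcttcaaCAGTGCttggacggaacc
FTL, 5′ UTR, exon 1 of 4, chr19:49468592-49468621, plus strand: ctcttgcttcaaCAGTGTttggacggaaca
SLC40A1, 5′ UTR, exon 1 of 8, chr2:190445386-190445415, minus strand: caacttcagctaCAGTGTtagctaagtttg
TFRC, 3′ UTR, exon 19 of 19, chr3:195777333-195777362, minus strand: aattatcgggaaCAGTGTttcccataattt
TFRC, 3′ UTR, exon 19 of 19, chr3:195777380-195777409, minus strand: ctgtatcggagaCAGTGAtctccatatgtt
TFRC, 3′ UTR, exon 19 of 19, chr3:195777445-195777474, minus strand: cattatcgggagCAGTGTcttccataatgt
TFRC, 3′ UTR, exon 19 of 19, chr3:195777849-195777878, minus strand: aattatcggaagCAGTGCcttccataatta
TF, 3′ UTR, exon 17 of 17, chr3:133511517-133511546, plus strand: tgaatgcattttCAGTGAaagattataaca

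FTH1, FTL and SLC40A1 each held 1 match, in the first exon, while TFRC held 4 in its last exon. The loops of FTL, SLC40A1 and 2 of the 4 in TFRC had the same 6 letters. The match in TF is a match of letters only. No match to this motif lay in the UTRs of CP, HEPH, IREB2, ACO1 or SLC11A2, which says only that these letters are not there. The search asked for 5 unbroken pairs, so an element with a mismatch or a bulge there would have been missed.

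The libraries held 28294819 to 32939264 counts. The shUSP39 replicates 2 and 3 had a count for 15446 and 14890 genes, against 12662 to 12819 in the other 4 libraries, so values that these 2 libraries decide are given below also without them. Of the ovarian carcinoma epithelium markers, CDH1 had at most 1 count in any library and PAX8 and EPCAM at most 6. KRT18 was counted at 676 to 1075. Of the mesenchymal genes, VIM had 316251 counts or more in every library, CDH2 had 11 to 42, and FN1 had no row. Among markers of other cell types, the hepatocyte genes ALB and TTR never passed 10 counts, but APOB had 7, 9 and 0 in pGIPZ-NC and 2, 46 and 23 in shUSP39. The macrophage marker CD68 had 295 to 382 counts and the fibroblast marker COL1A1 187 to 245, and for both the groups overlapped. Of the other macrophage markers, CD14 had at most 5 counts in any library, and CSF1R and CD163 had no row. The lymphocyte markers together reached at most 0.397 CPM (counts scaled to a library total of 1000000), and the endothelial markers at most 1.75 CPM.

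CP, the ferroxidase that gives the set its name, was the member with by far the largest difference, and it was low in every shUSP39 library. It had 222, 202 and 132 counts in pGIPZ-NC replicates 1 to 3 and 6, 2 and 1 counts in shUSP39 replicates 1 to 3. The groups were well apart, although the pGIPZ-NC libraries themselves spread from 132 to 222 counts. Control cells had a mean of 5.89 ± 1.13 CPM, against 0.0963 ± 0.0817 CPM after knockdown (SD over 3 libraries each). On the log2 scale shUSP39 differed from pGIPZ-NC by −5.88 (SE 0.38, 95% interval −6.66 to −5.10). In bulk RNA, fewer cells with the transcript and less of it per cell cannot be told apart.

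The size of the difference in CP was limited by the few counts left in shUSP39. Summed over libraries and scaled to depth, shUSP39 held 1.63% of the pGIPZ-NC level (9 against 556 counts, exact 95% interval 0.740% to 3.11%, which covers counting error only). That is 61.5 times lower, with an interval of 32.2 to 135 times. The fold change was −6.79 without shUSP39 replicate 1, which held 6 of the 9 counts, and −4.96 with that replicate as the lone shUSP39 library. CP was low with and without the libraries in which more genes were detected.

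CP lies at chr3:148880197-148939616 on the minus strand of GRCh37 and has 19 exons in a transcript of 4452 bases. Its single row in the table was NM_000096.3. Of those 4452 bases, 1234 overlap exons of HPS3, a gene of lysosome-related organelles on the opposite strand, and whether the counting used strand was not stated. HPS3 had 1114, 1215 and 951 counts in pGIPZ-NC and 809, 628 and 688 in shUSP39. In shUSP39 the shared stretch thus gave CP at most 6 counts beside a well-counted HPS3.

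**Figure D1:**
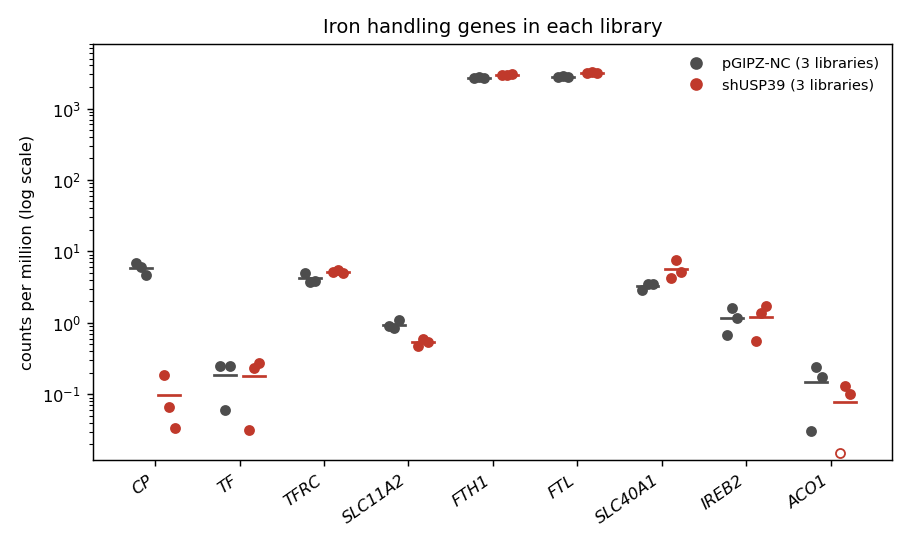
Levels in CPM of the members in each of the 3 pGIPZ-NC and 3 shUSP39 libraries, on a log10 axis, 1 point per library and a bar at each group mean. The CP points of shUSP39 lie far below those of pGIPZ-NC, and both ferritin genes lie near the top with little spread. The open circle at the bottom marks a library with 0 counts (ACO1 in shUSP39 replicate 1), and HEPH, which had no row, is not drawn.

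Oxidation by ceruloplasmin follows export, and the exporter was on the other side of the comparison. SLC40A1, which encodes ferroportin, the only known cellular exporter of iron, had 92, 116 and 100 counts in pGIPZ-NC and 136, 227 and 150 counts in shUSP39. All 3 shUSP39 libraries were above all 3 pGIPZ-NC libraries, with replicate 2 highest. Its mean went from 3.30 ± 0.389 to 5.63 ± 1.68 CPM (SD, n = 3 per group), which fitted as a log2 fold change of 0.74 (SE 0.21, 95% interval 0.31 to 1.18) or 1.67-fold. The value was 0.48 without shUSP39 replicate 2 and 0.35 with replicate 1 as the lone shUSP39 library. The highest value was thus in a library where more genes were detected, and the part of that in the difference was not tested. SLC40A1 lies at chr2:190425316-190448484 on the minus strand, with 8 exons and 1 row, NM_014585.5. HEPH, the membrane-bound relative of ceruloplasmin on chromosome X, is the other ferroxidase of the set and had no row.

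The ferritin genes were the most abundant members and differed little. FTH1 encodes the heavy subunit, which has the ferroxidase center, and had 87467, 90033 and 75808 counts in pGIPZ-NC and 92153, 90013 and 89624 counts in shUSP39. Scaled to depth this was 2713, 2733 and 2679 CPM in pGIPZ-NC and 2899, 2977 and 3047 CPM in shUSP39. The 2 groups did not overlap, and the step between them was small beside the level itself. FTH1 had a log2 fold change of 0.11 (SE 0.03, 95% interval 0.05 to 0.17), an increase of 7.92%.

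FTL encodes the light subunit, which serves mineral formation in the shell. It was at 2730, 2829 and 2789 CPM in pGIPZ-NC and at 3144, 3198 and 3137 CPM in shUSP39, from 78908 to 99928 counts a library. All shUSP39 libraries were again above all pGIPZ-NC libraries. FTL had a log2 fold change of 0.16 (SE 0.03, 95% interval 0.10 to 0.21), an increase of 11.6%. Both ferritin genes kept this direction under every scaling tried, and upper-quartile scaling gave 0.15 for FTH1 and 0.20 for FTL.

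On a scale of CPM per kilobase of transcript, FTL stood at 3195 ± 56.7 and FTH1 at 2252 ± 22.7 in pGIPZ-NC (SD, n = 3). The light subunit was thus above the heavy subunit on this scale. The scale takes no account of reads shared with other copies or with overlapping genes, so the order of the mRNA levels is not settled. In shUSP39 the levels on the same scale were 3627 ± 38.1 for FTL and 2472 ± 61.6 for FTH1. CP had 1.32 ± 0.254 and SLC40A1 0.992 ± 0.117 CPM per kilobase in pGIPZ-NC, and differed by little more than their spread. In shUSP39 SLC40A1 was at 1.69 ± 0.504 and CP at 0.0216 ± 0.0183 on that scale. The 2 genes lay close in control cells and far apart after knockdown.

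Both ferritin genes have near-identical processed copies elsewhere in the genome, so reads shared with those copies may have been lost or moved. FTH1 lies at chr11:61727190-61735106 on the minus strand, and 880 of the 1203 bases of its transcript overlap exons of BEST1 on the opposite strand. FTL lies at chr19:49468566-49470136 on the plus strand, with a transcript of 871 bases. Each had 1 row in the table.

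Iron uptake through transferrin was less clear. TFRC encodes the transferrin receptor and had 161, 124 and 108 counts in pGIPZ-NC and 166, 165 and 146 counts in shUSP39. The groups overlapped, since pGIPZ-NC replicate 1 lay within the shUSP39 counts. Control libraries averaged 4.19 ± 0.695 CPM against 5.21 ± 0.246 CPM after knockdown (SD over 3 libraries). The fit gave a log2 fold change of 0.29 (SE 0.18) and a 95% interval from −0.09 to 0.67, which includes no difference as well as an increase beyond 1.5-fold.

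TFRC had 2 transcript rows, and their balance was alike in both groups. NM_001128148.2 made up 38.8% ± 9.82 of the TFRC counts of control libraries and 40.2% ± 9.24 of those of shUSP39 (SD over 3 libraries), the rest being NM_003234.3. How reads common to several transcripts of a gene were treated was not stated, so the levels of TFRC, SLC11A2, IREB2 and ACO1 should not be set against those of CP, FTH1, FTL and SLC40A1.

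TF encodes transferrin itself, a plasma protein of the liver, and was barely counted. It had 8, 2 and 7 counts in pGIPZ-NC and 1, 7 and 8 in shUSP39, and the groups overlapped throughout. It lay under the filter on low counts, and no difference was detectable at this depth. Its row was NM_001063.3.

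SLC11A2 encodes DMT1, the transporter that carries ferrous iron across the gut surface and out of the endosome. It had 29, 28 and 31 counts in pGIPZ-NC and 15, 18 and 16 counts in shUSP39. Every shUSP39 library was below every pGIPZ-NC library, but on few counts. SLC11A2 had a fitted difference of −0.84 (log2, SE 0.45), with a 95% interval of −1.77 to 0.10 that includes no difference. Most counts came from NM_001174129.1, with 20, 26 and 24 counts in pGIPZ-NC and 14, 13 and 13 in shUSP39. The other rows, NM_001174125.1 and NM_001174130.1, had at most 9 and 4 counts in any library.

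The regulators of the set were low in this table and did not separate the groups. IREB2 encodes iron regulatory protein 2, whose level is set by its breakdown when iron is plentiful. It had 22, 53 and 33 counts in pGIPZ-NC and 18, 41 and 50 counts in shUSP39. On the log2 scale IREB2 differed by 0.04 (SE 0.42, 95% interval −0.84 to 0.91), an interval too wide to show how alike the groups were. Of its rows, NM_001320942.1 had 12, 44 and 12 counts in pGIPZ-NC and 17, 33 and 29 in shUSP39, and NM_001320943.1 ranged from 1 to 21.

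The fold change of IREB2 ran from −0.29 to 0.37 as each library was left out, and was −1.04 with shUSP39 replicate 1 as the lone shUSP39 library. No direction can be given for it. ACO1, which encodes iron regulatory protein 1, a cytosolic aconitase when it holds its iron-sulfur cluster, had 1, 8 and 5 counts in pGIPZ-NC and 0, 4 and 3 in shUSP39. It lay under the filter on low counts like TF.

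**Figure D2:**
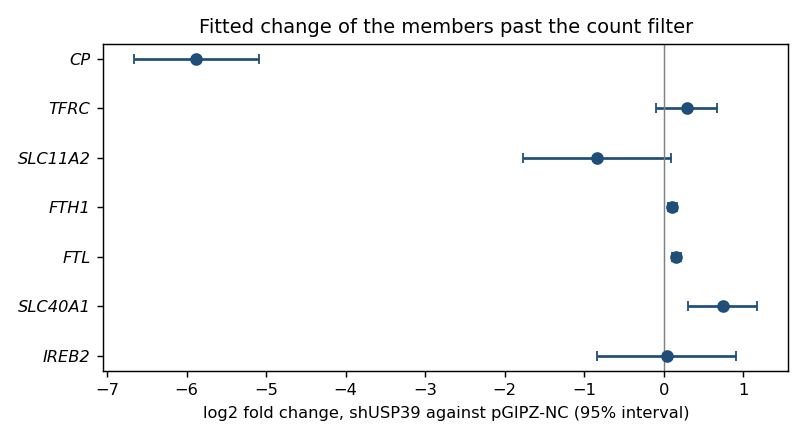
Fitted log2 fold change of shUSP39 over pGIPZ-NC for the members that passed the filter on low counts, with bars for the 95% interval. CP lies at −5.88, SLC40A1 at 0.74, FTL at 0.16 and FTH1 at 0.11, and the intervals of TFRC, SLC11A2 and IREB2 include 0.

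Across the members, 7 of the 10 passed the filter on low counts, and TF, ACO1 and HEPH did not enter the fit. In the edgeR quasi-likelihood fit over 10695 genes, 4 members were past an adjusted p of 0.05, SLC40A1, FTH1 and FTL higher and CP lower, where 33.6% of all genes tested were past it (16.1% higher and 17.5% lower). Of these 4, CP alone was beyond 2-fold, where 6.81% of all genes tested were (4.53% higher and 2.28% lower). The libraries of the 2 groups did not overlap for 5 members, 3 higher and 2 lower in shUSP39, against 44.5% of all genes tested (24.1% higher and 20.3% lower). Nothing is read from these counts, because the members were chosen on the same contrast.

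By position relative to the hairpins, the 3 mRNAs with a match in the 5′ UTR, FTH1, FTL and SLC40A1, were all higher in shUSP39, by log2 fold changes of 0.11, 0.16 and 0.74. TFRC, with matches in the 3′ UTR, was at 0.29 with an interval that includes 0. The differences among these 4 mRNAs were not tested. These are amounts of mRNA, and the translation of these mRNAs was not measured here.

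Other genes of iron, copper and heme handling were taken from 7 lists, 102 genes in all, of which 85 had a row and 72 were tested. Of the 72, 14 rose, 11 fell and 47 did not pass the adjusted p of 0.05. The 25 that passed are 34.7% of those tested, beside 33.6% of all genes. The median log2 fold change of the 72 was 0.09, beside 0.01 over all genes tested. The lists were put together with earlier results of these data known. The shares and the adjusted p-values of list genes are therefore given as description. Without shUSP39 replicates 2 and 3, 16 of the 25 still passed. With upper-quartile scaling 20 of the 25 did, and the balance moved to 17 higher and 6 lower, with 16 higher and 8 lower by library size alone. The genes named below are those beyond 2-fold, those with the largest change in each list, and others, marked as such, chosen after their values were seen.

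**Figure D3:**
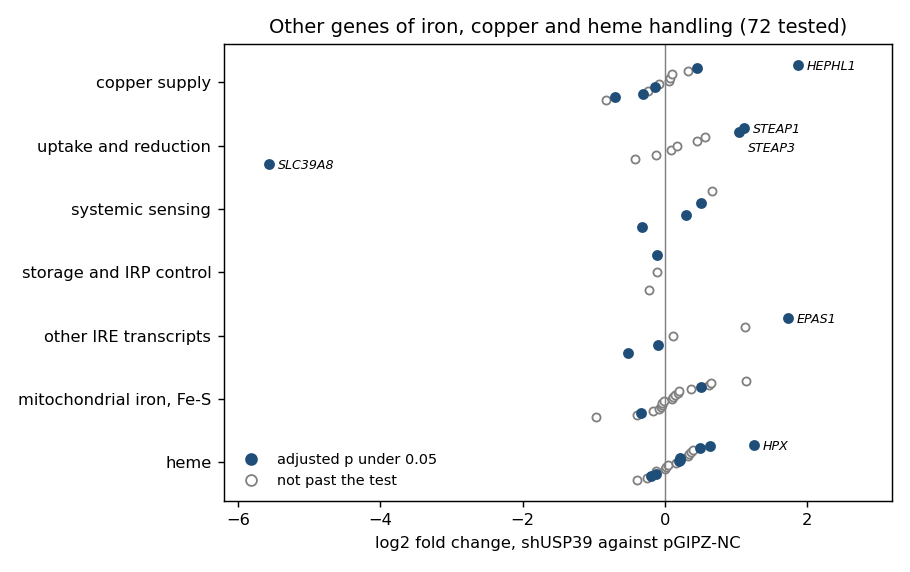
Fitted log2 fold change of shUSP39 over pGIPZ-NC for every tested gene of the 7 lists, 1 row per list and 1 point per gene, filled where the adjusted p was under 0.05. SLC39A8 lies alone at −5.57, and the filled points above 1 are HEPHL1, EPAS1, HPX, STEAP1 and STEAP3.

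Among 9 tested genes of metal uptake and reduction, 2 rose, 1 fell and 6 did not pass. SLC39A8, or ZIP8, a zinc transporter that also carries iron and manganese, was lower by nearly as much as CP. It had 375, 380 and 314 counts in pGIPZ-NC and 9, 4 and 9 in shUSP39 (log2 fold change −5.57, SE 0.25, adjusted p = 6.44e-16). Summed over libraries, shUSP39 held 2.07% of the pGIPZ-NC level (exact 95% interval 1.29% to 3.15%). STEAP3, the ferrireductase that works beside DMT1 in the endosome, rose from 8.02 ± 1.96 to 16.7 ± 0.875 CPM (SD, n = 3 each; log2 fold change 1.04, SE 0.14, adjusted p = 1.03e-06). STEAP1, a relative of STEAP3 known as a prostate cancer antigen, rose from 11.8 ± 1.09 to 25.9 ± 2.60 CPM (log2 fold change 1.11, SE 0.11, adjusted p = 3.15e-09). The carrier was thus much lower while both STEAP genes were higher.

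**Figure D4:**
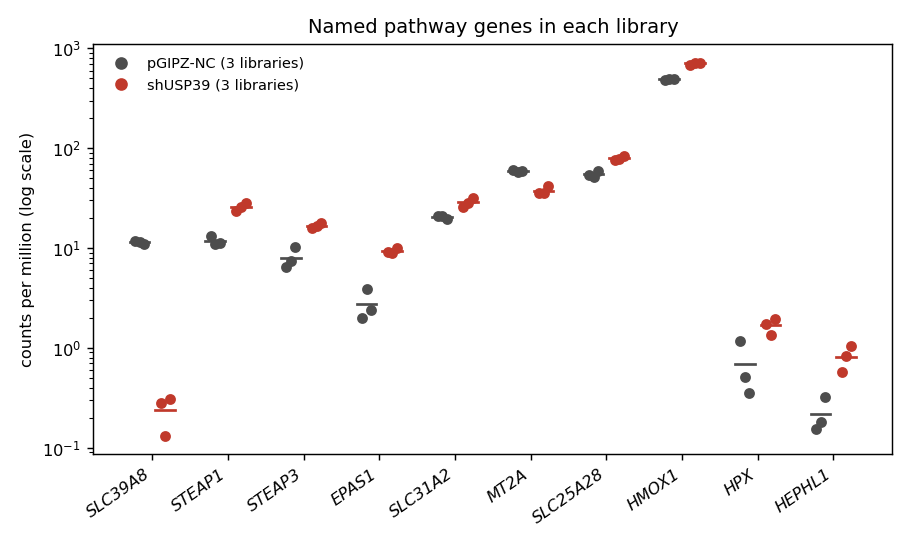
Levels in CPM of 10 list genes in each library, on a log10 axis, 1 point per library and a bar at each group mean. SLC39A8 drops from a mean of 11.4 CPM to 0.241 CPM with knockdown, MT2A is also lower in shUSP39, and the 3 shUSP39 points of the other 8 genes lie above the 3 pGIPZ-NC points.

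Copper reaches ceruloplasmin through its own carriers, and of 12 tested genes of copper supply 2 rose, 3 fell and 7 did not pass. HEPHL1, or zyklopen, a ferroxidase of the same family as CP and HEPH, had 5, 6 and 9 counts in pGIPZ-NC and 18, 25 and 31 in shUSP39 (log2 fold change 1.87, SE 0.59, adjusted p = 0.0144). On so few counts the call was lost without 1 of 3 libraries, with adjusted p up to 0.0977, and was at 0.434 without shUSP39 replicates 2 and 3. SLC31A2, a CTR2 copper transporter of internal membranes, rose from 20.5 ± 0.802 to 28.6 ± 2.93 CPM (log2 fold change 0.45, SE 0.09, adjusted p = 0.000287), with an adjusted p of 0.0842 without those 2 libraries.

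MT2A, a metallothionein that binds zinc and copper, fell from 59.5 ± 1.35 to 37.3 ± 3.58 CPM (log2 fold change −0.70, SE 0.07, adjusted p = 1.70e-08). Metallothionein genes are close copies of each other, so its share of their reads is uncertain. The other 2 that fell, named after their values were seen, were CCS, the copper chaperone of superoxide dismutase (log2 fold change −0.31), and SCO1, a copper chaperone of cytochrome oxidase (−0.14). SCO1 was past the threshold in TMM scaling but had an adjusted p of 0.126 under upper-quartile scaling. Without shUSP39 replicates 2 and 3 its log2 fold change was −0.09.

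Of the 4 tested genes of systemic iron sensing, 2 rose and 1 fell. B2M, the light chain that HFE needs to reach the cell surface and better known from antigen presentation, rose from 505 ± 34.8 to 729 ± 16.7 CPM (log2 fold change 0.50, SE 0.04, adjusted p = 1.31e-10). ERFE, which encodes erythroferrone and was named after its value was seen, rose by a log2 fold change of 0.30, with an adjusted p of 0.150 without shUSP39 replicates 2 and 3. SMAD4, through which bone morphogenetic protein signals reach the hepcidin gene among many others, fell from 91.0 to 73.9 CPM (log2 fold change −0.32, SE 0.05, adjusted p = 2.65e-05).

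Of the 3 tested genes of iron storage and control of the iron regulatory proteins, PCBP1, an RNA-binding protein that also delivers iron to ferritin, fell from 1311 to 1234 CPM (log2 fold change −0.11, SE 0.03, adjusted p = 0.0045). Its adjusted p was 0.0807 under upper-quartile scaling. Among 5 tested genes, members apart, whose mRNAs are known or proposed to carry an iron-responsive element, 1 rose and 2 fell. EPAS1, which encodes the hypoxia-inducible factor HIF-2α, had 64, 128 and 68 counts in pGIPZ-NC and 287, 272 and 296 in shUSP39 (log2 fold change 1.73, SE 0.20, adjusted p = 9.50e-08). PFN2, an actin-binding profilin, fell from 50.2 to 35.7 CPM (log2 fold change −0.52, SE 0.07, adjusted p = 2.10e-06).

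Of 19 tested genes of mitochondrial iron import and iron-sulfur cluster assembly, 1 rose, 1 fell and 17 did not pass. SLC25A28, or mitoferrin 2, the iron importer of the inner membrane in most cells, rose from 54.9 ± 3.31 to 79.4 ± 4.32 CPM (log2 fold change 0.51, SE 0.06, adjusted p = 3.39e-07). ISCA2, an assembly factor of mitochondrial iron-sulfur clusters, fell from 22.5 to 18.2 CPM (log2 fold change −0.33, SE 0.09, adjusted p = 0.00649).

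Of 20 tested genes of heme synthesis, transport and breakdown, 6 rose and 2 fell. HPX, which encodes the heme-binding plasma protein hemopexin, had 38, 17 and 10 counts in pGIPZ-NC and 55, 41 and 57 in shUSP39 (log2 fold change 1.25, SE 0.42, adjusted p = 0.0216). That call was lost without 1 of 3 libraries, with adjusted p up to 0.0967, and without shUSP39 replicates 2 and 3 (adjusted p = 0.128). Named after its value was seen, HMOX1, the inducible heme oxygenase that frees iron from heme, rose from 492 ± 6.42 to 706 ± 23.5 CPM (log2 fold change 0.50, SE 0.03, adjusted p = 4.53e-12). It was the most abundant of the 6 that rose.

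The other 4 that rose, also named after their values were seen, were ABCG2 and FLVCR1, which export heme, CPOX, an enzyme of heme synthesis, and BLVRB, a biliverdin reductase. Their log2 fold changes were 0.63, 0.20, 0.21 and 0.21. Without shUSP39 replicates 2 and 3 they were 0.64, 0.22, 0.28 and 0.16. ABCB6, a porphyrin transporter, fell as well (log2 fold change −0.19, SE 0.06, adjusted p = 0.0122), and was at −0.17 without those 2 libraries. Its adjusted p was 0.0591 under upper-quartile scaling. ABCB10, a mitochondrial transporter of the erythroid heme pathway, was at −0.13 and had an adjusted p of 0.145 under that scaling.

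CP is also an acute-phase plasma protein, and 18 other genes of that class were examined. Of these 14 had a row, 12 never passed 10 counts in any library, and 1 was tested. That gene, C3, the central complement component, had 34, 19 and 13 counts in pGIPZ-NC and 296, 323 and 210 in shUSP39 (log2 fold change 3.65, SE 0.25, adjusted p = 7.73e-12). C3 rose, and CP and C3 stood on opposite sides of the comparison, and most of the class was too low to read.

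The genes whose levels followed CP most closely across the 6 libraries were ranked by the Euclidean distance of their log2 CPM, centered on each gene's mean, among 10694 genes. EMB, which encodes embigin, a partner of monocarboxylate transporters, was nearest at a distance of 0.288, with 727, 587 and 427 counts in pGIPZ-NC and 20, 12 and 7 in shUSP39. It shared with CP the order of the libraries within both groups, though the distance that picked it also takes in that order. In shUSP39 the order of CP rests on 6, 2 and 1 counts. MMRN1, a platelet and endothelial matrix protein, SLC39A8, NOG, an inhibitor of bone morphogenetic proteins, and WNT5A, a secreted Wnt ligand, came next at distances of 1.13, 1.19, 1.22 and 1.28. Their log2 fold changes lay between −5.57 and −4.76, beside −5.88 for CP. Both groups enter the distance, so it is set mostly by the size of the difference between them, and it is given as a description.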

How the data were processed

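RNA sequencing libraries of A2780 cells (3 pGIPZ-NC and 3 shUSP39) were analysed from a table of transcripts. The authors deposited raw read counts per transcript and library. The labels name hg19, the same assembly as GRCh37, with HISAT2 and Cufflinks, and the counting step and its use of strand are not given in the sources used here. Further columns hold the authors' fold changes, p-values and q-values and were not used. Counts were summed per gene symbol, after 46 symbols turned into dates by a spreadsheet had been restored. Library totals of 28294819 to 32939264 counts set the precision of low genes, and arms of 3 libraries limit it further.

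Genes passing filterByExpr (10695) were fitted with edgeR 4.0.16 (R 4.3.3), with TMM scaling and robust quasi-likelihood tests, and p-values were adjusted by Benjamini-Hochberg over all genes tested. The biological coefficient of variation was 7.59%. Checked on simulated data for this comparison (10518 genes), the fit recovered 83% of 100 genes changed 2-fold and 99% of 100 changed 4-fold, with 7 false calls. The changed genes were drawn from those with a mean above 1 CPM, and the simulated spread was taken from the fit itself. The recovery therefore does not cover lower genes such as SLC11A2 and HEPHL1. The alternatives were other scalings and filters, DESeq2 1.42.0, limma-voom 3.58.1, a replicate block, the highest transcript of each gene, and each library left out. The members and the gene lists were chosen with earlier results of these data known. Named genes are the members, list genes beyond 2-fold, the largest rise and fall in each list with a mean of at least 1 CPM, the 5 genes nearest to CP, and others marked as chosen after their values were seen. Motifs were read from GRCh37 with GENCODE v44 (89217 coding transcripts). The values of 1 list gene are not reported here.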

Additional observations from a re-analysis of the deposited data

How the results depend on the processing

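Among the members and named genes followed through the alternative runs, IREB2 alone changed direction under any of them. The markers CD68, CDH2, COL1A1 and PDGFRB were not followed. The fit without shUSP39 replicates 2 and 3 was chosen after seeing the data, and its lone shUSP39 library is assumed to vary like the pGIPZ-NC group. The log2 fold change of CP ran from −6.79 to −5.50 as each library was left out and was −4.96 without shUSP39 replicates 2 and 3. It could not be fitted where at least 10 counts in every library were asked for. DESeq2 gave CP −5.935 (SE 0.54) and limma-voom gave −5.96 (SE 0.75), with larger errors than the SE of 0.38 in the main fit. Upper-quartile scaling gave 0.15 for FTH1 and 0.20 for FTL, and library size alone gave 0.18 for FTL. Without shUSP39 replicates 2 and 3 the log2 fold changes were 0.0753 for FTH1, 0.35 for SLC40A1, −1.02 for SLC11A2 and −1.04 for IREB2. With each library left out, SLC40A1 ran from 0.48 to 0.90 and IREB2 from −0.29 to 0.37. With no filter on low counts, TF was at −0.09 and ACO1 at −0.95.

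Genes past the adjusted p and beyond 2-fold numbered 728, and 471 with at least 10 counts in every library. Those past the adjusted p alone numbered 3598, and 2244 without shUSP39 replicates 2 and 3. Of the iron, copper and heme list genes, 14 rose and 11 fell, 8 rose without those 2 libraries, 17 rose and 6 fell under upper-quartile scaling, 16 rose and 8 fell by library size alone, and with each library left out 12 to 15 rose and 7 to 11 fell, the lowest without shUSP39 replicate 2. With no filter, 2 acute-phase genes were past the adjusted p and higher. C3 was 1 of them, and the other lay under the filter on low counts in the main fit. DESeq2, limma-voom and the highest transcript of each gene each kept the same 25 list genes.

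With the replicate number as a block the log2 fold changes were −5.91 for CP, 0.30 for TFRC, 0.11 for FTH1, 0.16 for FTL, 0.72 for SLC40A1 and −0.84 for SLC11A2, and 745 genes were past the threshold and beyond 2-fold. Past the adjusted p alone were 3981 genes with the block, beside 3598 without it. Whether same-numbered libraries were prepared together is not stated. Their deviations from the group means correlated at 0.07, 0.00 and 0.02, which cannot decide it with 3 libraries a group. Depth limits SLC11A2, IREB2, TF and ACO1, whose libraries held at most 53 counts, more than FTH1 and FTL.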

Other observations

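The genes around CP on chromosome 3 were looked at after the values of CP were known, as the overlapping gene and the 2 nearest tested genes on each side. HPS3, which overlaps CP, fell from 1114, 1215 and 951 counts to 809, 628 and 688 counts (log2 fold change −0.62, SE 0.09, edgeR adjusted p = 2.49e-06). On the side of higher coordinates, TM4SF18, a tetraspan membrane protein gene 96.7 kb away, fell from 93, 83 and 71 counts to 24, 35 and 23 counts (log2 fold change −1.58, SE 0.31, adjusted p = 0.000178). TM4SF1, its better-known relative at 147 kb, fell from 946 ± 33.9 to 705 ± 13.9 CPM (log2 fold change −0.45, SE 0.03, adjusted p = 3.21e-11). On the side of lower coordinates, GYG1, which primes glycogen synthesis and lies 131 kb away, had 21 to 22 counts in pGIPZ-NC and 17 to 19 in shUSP39 (log2 fold change −0.27, SE 0.48, adjusted p = 0.725). The next tested gene on that side was ZIC1, a zinc finger transcription factor gene at chr3:147111209-147228080. It lies much farther from CP than the other genes named here and is not a close neighbour. ZIC1 fell from 79, 70 and 126 counts to 15, 14 and 4 counts (log2 fold change −3.07, SE 0.41, adjusted p = 1.00e-06). Of these 5 genes, 4 fell, the distant ZIC1 among them, beside 17.5% of all genes tested. Without shUSP39 replicates 2 and 3 the log2 fold changes were −0.48 for HPS3, −1.82 for TM4SF18, −0.42 for TM4SF1 and −2.68 for ZIC1. Whether nearness to CP has a part in these falls was not tested.

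Of the marker genes, KRT8 and KRT18, partner keratins of simple epithelia in the ovarian carcinoma list, went opposite ways. KRT8 had 28, 37 and 26 counts in pGIPZ-NC and 3, 0 and 0 in shUSP39 (log2 fold change −4.76, SE 0.82, adjusted p = 4.13e-05), and was at −3.33 without shUSP39 replicates 2 and 3 (adjusted p = 0.0103). KRT18 rose from 22.2 ± 1.69 to 33.1 ± 3.03 CPM (log2 fold change 0.56, SE 0.09, adjusted p = 1.51e-05). DCN, a matrix proteoglycan of fibroblasts, had 31, 22 and 49 counts in pGIPZ-NC and 0, 1 and 6 in shUSP39 (log2 fold change −3.81, SE 0.74, adjusted p = 0.000191). Its remaining shUSP39 library was at 0 counts without replicates 2 and 3. The other fibroblast markers, COL1A1 (log2 fold change −0.20) and PDGFRB (0.29), did not pass. MUC16, the source of the CA-125 antigen and chosen after its values were seen, had 5, 1 and 1 counts in pGIPZ-NC and 6, 150 and 71 in shUSP39, high only in the 2 libraries with more genes detected.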
